A study of Homo sapiens with 12 samples.

Results

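EP300 and CREBBP, the genes of the acetyltransferase paralogs p300 and CBP, were followed through 12 RNA libraries of HEK293T cells. Both were taken by symbol after the counts of RefSeq transcripts had been summed per gene. They are 2 of 24408 features in the counts and 2 of 14621 genes that passed the filter on low counts. HEK293T cells derive from human embryonic kidney and make the large T antigen of the virus SV40. All cells received guide RNAs for 4 sites at IL1RN, the gene of the interleukin 1 receptor antagonist, together with 1 of 4 plasmids, each in 3 libraries. The plasmids coded for dCas9 alone, a Cas9 that binds DNA without cutting it, for dCas9-VP64, a fusion to a viral activation domain, for dCas9-p300 core, a fusion to the catalytic core of p300, or for dCas9-p300 D1399Y, the same core with a change that removes its acetyltransferase activity. Delivery was by lipid transfection with plasmid for the dCas9 protein and for the guides at a mass ratio of 3 to 1. Per the labels, more than 80% of cells took up a control plasmid in routine tests, so every library can hold RNA of some cells without plasmid. The p300 plasmids therefore add human EP300 sequence to cells whose own EP300 is intact, and no plasmid is described as carrying CREBBP.

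p300 and CBP are large coactivators used by many DNA-binding factors. They are brought to promoters and enhancers by transcription factors such as CREB, acetylate histones there, H3 at lysine 27 in particular, and acetylate many other proteins. The pair share a bromodomain, a catalytic domain and several domains that hold transcription factors, and in most tissues both are expressed. Mutations in either gene are a known cause of Rubinstein-Taybi syndrome.

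The D1399Y change lies in a stretch where the paralogs are more alike than over their whole coding sequence, and the stretch around it is shown because it lies in the part of EP300 that the plasmids carry. The aspartate codon that D1399Y changes lies in exon 26 of the 31 exons of EP300, on chromosome 22 (plus strand), at coding bases 4195 to 4197. The codon aligned to it in CREBBP is 1435, in exon 26 of 31 exons on chromosome 16 (minus strand), at coding bases 4303 to 4305. Below, the coding strand is given 5′ to 3′ from GENCODE release 29 (GRCh38), with this codon in capitals and 12 codons on either side.
EP300: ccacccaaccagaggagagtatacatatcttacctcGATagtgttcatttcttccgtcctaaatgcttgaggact
CREBBP: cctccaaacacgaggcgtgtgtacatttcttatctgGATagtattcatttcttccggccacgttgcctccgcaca
The codon is the same in both genes, and 54 of the 75 bases shown are identical. Over 200 codons on either side of it 76.6% of aligned coding bases were identical, and 65.2% were over all 2314 aligned codons. The longest run of bases that the EP300 transcript shares exactly with CREBBP was 29, and 0 of the 9538 windows of 50 bases in EP300 occurred in CREBBP. No source used here states the read length or the mismatches allowed in mapping.

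Total counts ran from 2442960 to 5154627 per library. All 7 HEK293T markers listed were detected, VIM at a median of 194 CPM and PAX2 at 4.90 CPM. Of 11 markers of other cell types 9 stayed under the filter, and CD3E and HBB were at 0 in all libraries. The 2 that passed were the fibroblast markers COL1A1, at a median of 16.1 CPM, and COL3A1, at 6.69 CPM, both above PAX2. The summed level of the 11 lay between 21.9 and 32.4 CPM over the 4 groups. Levels are in CPM, a gene's count relative to the TMM-scaled size of its library.

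EP300 was high in all 6 libraries with a p300 plasmid and low in the 6 without. Its level was 124, 145 and 53.1 CPM in dCas9 replicates 1, 2 and 3, from 439, 609 and 140 counts. With dCas9-VP64 it was 132, 139 and 122 CPM, from 534, 548 and 481 counts. With dCas9-p300 core it was 387, 338 and 449 CPM, from 1468, 1757 and 1705 counts. With dCas9-p300 D1399Y it was 449, 388 and 455 CPM, from 1658, 1335 and 1714 counts. The lowest library with p300 stood at 338 CPM and the highest without at 145 CPM, so these sets did not overlap. The share of all tested genes without overlap between these sets is not given here. By mean the order was D1399Y (430 ± 36.9 CPM; SD, n = 3), core (391 ± 55.6 CPM), dCas9-VP64 (131 ± 8.47 CPM) and dCas9 (107 ± 48.3 CPM). Libraries of the first pair of groups overlapped, as did those of the last pair. EP300 ranked from 103 to 260 among all features by count in the libraries with p300 and from 1873 to 5796 in those without.

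CREBBP showed no such step. Its level was 144, 188 and 101 CPM in dCas9 replicates 1, 2 and 3 and 163, 180 and 158 CPM with dCas9-VP64. In the core libraries it was 138, 182 and 204 CPM, and in the D1399Y libraries 167, 151 and 184 CPM. The counts behind these levels ran from 266 in dCas9 replicate 3 to 945 in core replicate 2. The order by mean was core (175 ± 33.5 CPM; SD, n = 3), D1399Y (168 ± 16.4 CPM), dCas9-VP64 (167 ± 11.4 CPM) and dCas9 (144 ± 43.3 CPM), and each group overlapped the next. CREBBP ranked from 968 to 2741 over the 12 libraries.

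**Figure D1:**
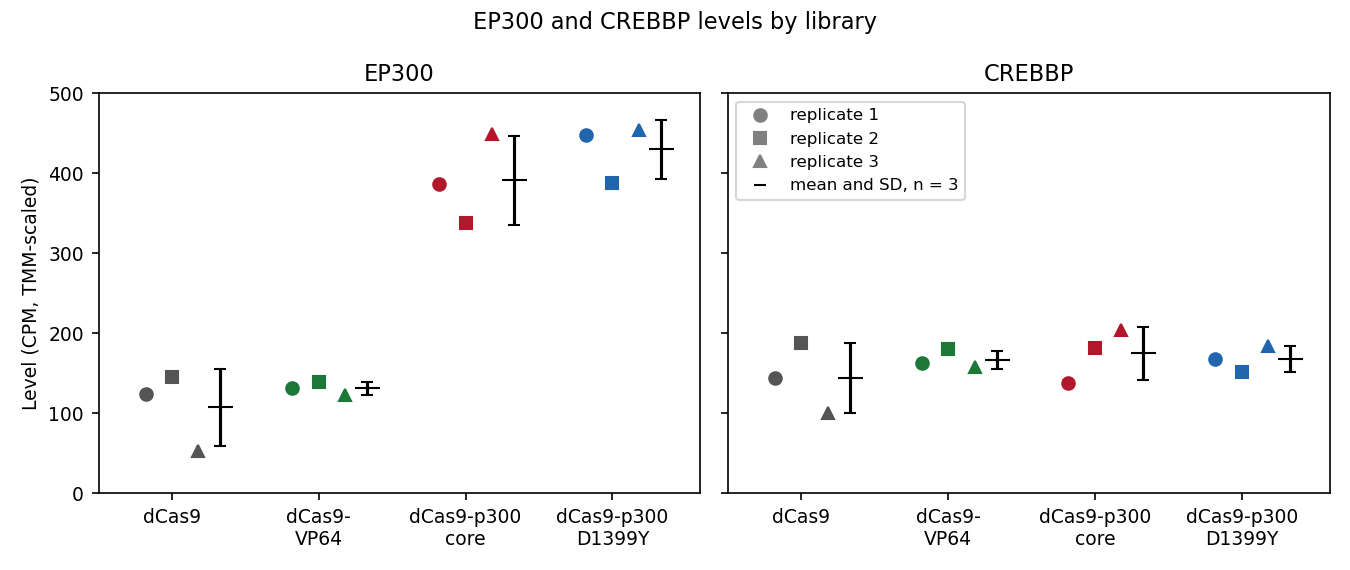
Levels of EP300 (left) and CREBBP (right) in CPM on a shared linear axis, with 1 point per library, shapes for replicate numbers, and the mean and SD of each group of 3 beside the points. EP300 lies between 338 and 455 CPM in the 6 libraries with p300 and between 53.1 and 145 CPM in the others, while CREBBP lies between 101 and 204 CPM throughout.

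Per kilobase of the longest annotated transcript the paralogs lay close together in cells without a p300 plasmid. The ratio of EP300 to CREBBP counts per kilobase had a median of 0.873 in the 6 libraries without p300, with a lowest value of 0.593 in dCas9 replicate 3 and a highest of 0.970. In the libraries with p300 it had a median of 2.84 and a range from 2.10 to 3.15. Lengths were taken from GENCODE (9587 bases for EP300 and 10803 for CREBBP) and can differ from those used for counting.

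The comparison of each protein with dCas9 alone asks what it added to the same guides. EP300 was 3.61-fold higher with the core than with dCas9 (95% interval 2.45 to 5.33; log2 1.85 ± 0.26 SE; adjusted p = 0.0393, edgeR) and higher in 3 of 3 libraries. In that comparison 0.0137% of all tested genes passed the threshold of 0.05 on the adjusted p, namely EP300 and IL1RN, and CREBBP did not. EP300 was 3.98-fold higher with D1399Y than with dCas9 (95% interval 2.69 to 5.87; log2 1.99 ± 0.26; adjusted p = 0.0368, edgeR), again in 3 of 3 libraries. Here 0.00684% of genes passed, which was EP300 alone, with 895 genes at an unadjusted p under 0.05. With dCas9-VP64, which carries no p300 sequence, EP300 stood at 1.21-fold of dCas9 (95% interval 0.828 to 1.78; log2 0.28 ± 0.26; adjusted p = 0.925, edgeR). There 0% of genes passed in edgeR, with 450 genes at an unadjusted p under 0.05, while DESeq2 called 1 gene, IL1RN, and limma-voom 0.

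The size of the EP300 difference from dCas9 moved less than its call did when single libraries were left out. In edgeR the core and D1399Y calls were lost on leaving out any 1 library other than dCas9 replicates 2 and 3, with adjusted p from 0.0706 to 0.289 for the core and from 0.110 to 0.342 for D1399Y; without dCas9 replicate 3 they stood at log2 1.54 (adjusted p = 3.21e-05) and 1.67 (adjusted p = 1.95e-05). The log2 fold change ran from 1.54 to 2.14 for the core and from 1.67 to 2.28 for D1399Y in these fits. DESeq2 and limma-voom made both calls. In edgeR both were lost with the replicate block (adjusted p = 0.101 for the core and 0.141 for D1399Y) and with the compared groups fitted alone (adjusted p = 0.954 and adjusted p = 0.823).

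The active and the inactive core were not told apart by EP300. EP300 in the core group was 0.909-fold that in the D1399Y group (95% interval 0.627 to 1.32; log2 -0.14 ± 0.25; adjusted p = 1.00, edgeR). Differences inside that interval were not excluded, and the interval is no limit of detection. IL1RN was the only gene past the threshold in edgeR in this comparison (0.00684% of genes), at 83.3 ± 8.82 CPM with the core and 7.78 ± 1.41 CPM with D1399Y (SD, n = 3). IL1RN and EP300 thus ordered the libraries differently, with IL1RN low in the D1399Y libraries where EP300 was high.

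Set together by whether the plasmid carried p300, the 6 libraries with it had EP300 at 3.44-fold of the 6 without (95% interval 2.62 to 4.52; log2 1.78 ± 0.18; adjusted p = 0.00202, edgeR). EP300 was the 1 gene called (0.00684% of genes) in edgeR and limma-voom, while DESeq2 called EP300 and IL1RN. That call was kept on leaving out each library in turn, with log2 values from 1.62 to 1.93 and adjusted p of at most 0.0323. Replicate 3 of both p300 groups bears the pool label CV42 and all other libraries CV41. Within the CV41 libraries EP300 stood at log2 1.71 ± 0.22 for this comparison and missed the threshold (adjusted p = 0.0836, edgeR), and the core and D1399Y differences from dCas9 stood at 1.75 ± 0.31 and 1.96 ± 0.31 (adjusted p = 0.621 and adjusted p = 0.613). The CV42 libraries hold no group without p300.

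CREBBP passed the threshold in 0 of these 5 comparisons, by edgeR, DESeq2 or limma-voom, and its unadjusted p was under 0.05 in 0 of them in edgeR. It stood at log2 0.27 ± 0.20 with the core, 0.21 ± 0.20 with D1399Y and 0.21 ± 0.20 with dCas9-VP64, each against dCas9. For the libraries with p300 against those without it was 1.10-fold, with a 95% interval from 0.894 to 1.36. Changes inside that interval were not excluded with these libraries, and the interval is no limit of detection. A larger change could also miss the threshold, as IL1RN did at 3.70-fold with dCas9-VP64 against dCas9 (adjusted p = 0.0873, edgeR). Without dCas9 replicate 3, the library of lowest CREBBP, its differences from dCas9 were 0.07 for the core, 0.01 for D1399Y and 0.01 for dCas9-VP64 on the log2 scale.

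Within each library the ratio of EP300 to CREBBP needs no library size. The ratio was 0.861, 0.775 and 0.526 in dCas9 replicates 1, 2 and 3 and 0.809, 0.775 and 0.773 with dCas9-VP64. In the core libraries it was 2.80, 1.86 and 2.20, and in the D1399Y libraries 2.68, 2.56 and 2.47. CREBBP thus had the larger count in every library without p300 and EP300 in every library with it. The mean log2 ratio was 1.27 ± 0.22 with p300 and -0.43 ± 0.25 without (SD, n = 6), a difference of 1.69 or 3.23-fold (exact permutation p = 0.00216, two-sided, the smallest that 924 splits allow; adjusted p = 0.0108 over 5 comparisons). With libraries permuted only within replicate numbers the exact permutation p was 0.00926. Within the CV41 libraries the difference was 1.72 (exact permutation p = 0.00476, with 4 libraries against 6). For 3 against 3 libraries the smallest exact permutation p is 0.1, which the core and D1399Y reached against dCas9 (differences of 1.68 and 1.86; adjusted p = 0.167 each). The core and D1399Y differed by -0.19 (exact permutation p = 0.4; adjusted p = 0.5), and dCas9-VP64 and dCas9 by 0.16 (exact permutation p = 0.8; adjusted p = 0.8). The core libraries spread more in this ratio (SD 0.30 on the log2 scale) than the D1399Y libraries (SD 0.06); this difference in spread was not tested. Core replicate 2, of lowest ratio, was the largest library and had the largest CREBBP count (945), at a level of 182 CPM. Its EP300 level, 338 CPM, was the lowest of the libraries with p300.

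**Figure D2:**
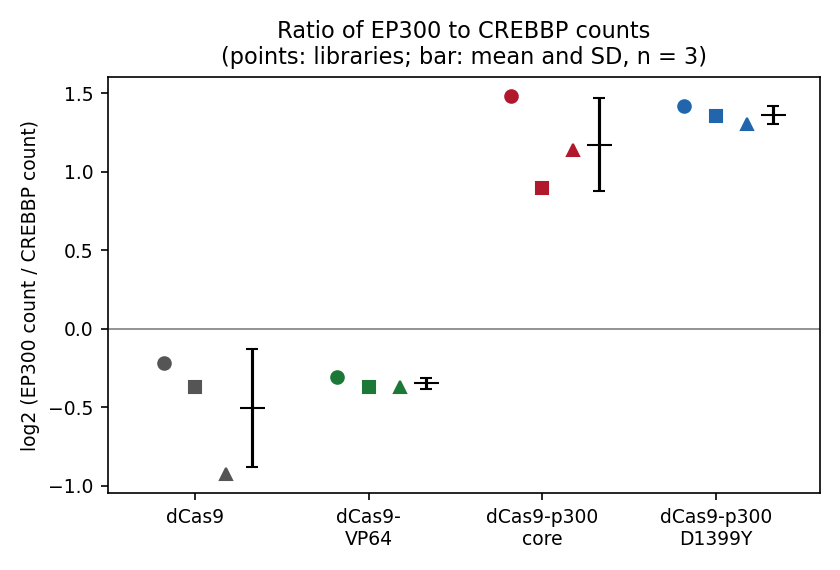
The log2 ratio of EP300 to CREBBP counts in each library (points; shapes for replicates 1 to 3 as circle, square and triangle) with the mean and SD of each group of 3. All 6 libraries without p300 lie below 0, dCas9 replicate 3 lowest at -0.93, and all 6 with p300 lie above it, between 0.89 and 1.48.

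The part of EP300 counts that the plasmid could supply was estimated as the excess over libraries without p300, which takes the cell's own EP300 to be at their mean. The deposited counts carry no positions along the transcript, so reads of the plasmid and of the cell's own gene cannot be told apart, and the excess is not a measurement of plasmid RNA. The 6 libraries without p300 had EP300 at 119 ± 33.6 CPM (SD, n = 6). Above that mean lay 69.1%, 64.7% and 73.4% of the EP300 level in core replicates 1, 2 and 3. In D1399Y replicates 1, 2 and 3 it was 73.4%, 69.2% and 73.8%. The means were 69.1% ± 4.35 and 72.1% ± 2.51 (SD, n = 3), or 1135 counts per library on average in either group (SD 119 and 184 counts). These SDs hold the spread of the p300 libraries only. With each library without p300 as the baseline in turn, the excess ran from 57.0% in core replicate 2 to 88.3% in D1399Y replicate 3, and dCas9 replicate 3 gave the highest value in all 6. With the CREBBP count of the same library as the yardstick it was 66.1% ± 6.79 for the core and 70.7% ± 1.19 for D1399Y. The remainder, 119 CPM, is by construction the level without p300, and whether the cell's own EP300 changed under either fusion was not tested.

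**Figure D3:**
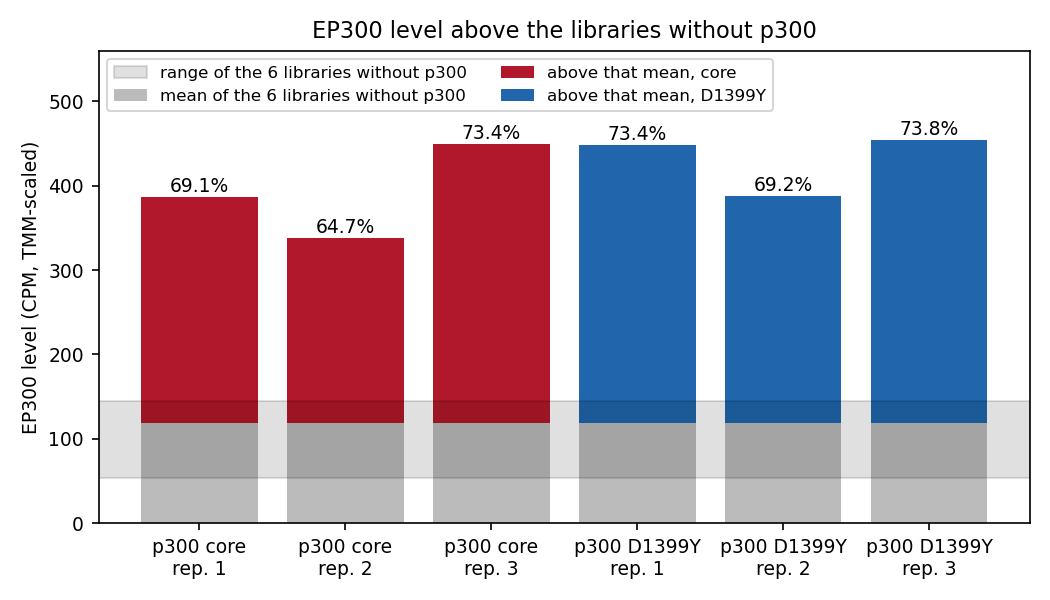
EP300 level (CPM, bars from 0) in the 6 libraries with a p300 plasmid, split at the mean of the 6 libraries without (119 CPM, grey), with the excess as a percentage above each bar. The shaded band is the range of the libraries without p300, from 53.1 to 145 CPM, and every bar ends above it.

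Counts of the abundant transcript ACTB, which codes for beta-actin, moved less than depth. The smallest library, dCas9 replicate 3, held 780 ACTB counts and the largest, core replicate 2, held 978. Their totals differed 2.11-fold, ACTB 1.25-fold and CREBBP 3.55-fold. Over the 12 libraries ACTB ran from 665 to 978 counts and GAPDH from 1260 to 1529. EP300 exceeded ACTB in all 6 libraries with p300, by 1.65-fold to 2.16-fold in count, and lay below it in all 6 without. These counts are not corrected for transcript length, so they do not rank the RNA levels of EP300 and ACTB. Whether a limit on counts, such as removal of duplicate reads, touched this comparison or the EP300 excess was not tested.

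dCas9 replicate 3 had the lowest level of both paralogs among the 12 libraries. Against the mean of the other 5 libraries without p300 it was lower by a log2 difference of -1.31 for EP300 and -0.71 for CREBBP. Long transcripts were low there in general. Over 1049 other tested genes with a transcript of at least 8000 bases the median difference was -0.83, against 0.04 over all tested genes. Of these long genes 262 lay lower than EP300 and 608 lower than CREBBP. The part of transcript length in the low EP300 value was not tested.

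**Figure D4:**
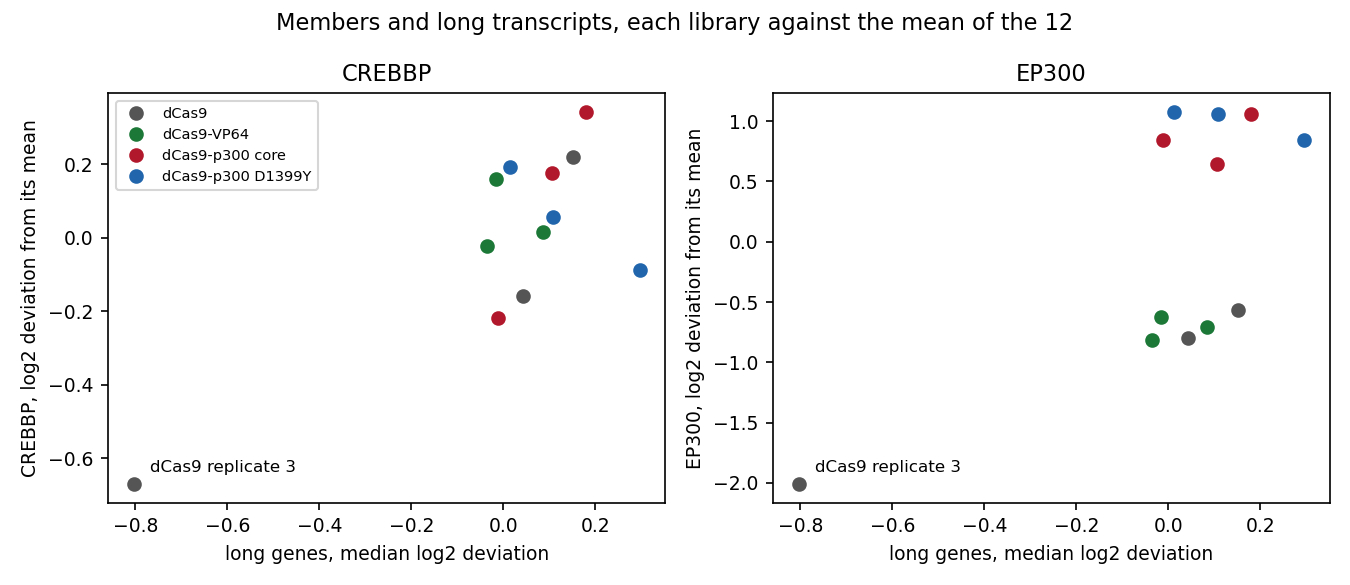
The log2 deviation of CREBBP (left) and EP300 (right) in each library from its own mean over the 12, against the median deviation of 1049 genes with transcripts of at least 8000 bases. dCas9 replicate 3 stands apart on the horizontal axis at -0.80 and is lowest for both genes, and EP300 splits into libraries with p300 above 0 and libraries without below 0.

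The counts list CREBBP as 2 transcripts and EP300 as 1, NM_001429. The CREBBP forms are NM_004380 and NM_001079846, and the second lacks 1 exon with 114 coding bases. NM_004380 held 49.8% of the CREBBP counts over all libraries, 3803 against 3827. Its share ran from 47.5% in dCas9 replicate 1 (exact 95% binomial interval 43.0% to 51.9%) to 53.0% in D1399Y replicate 2 (48.6% to 57.3%). The squared difference of the pair over their sum, added over the 12 libraries, was 7.04, where a random even split of reads would give about 12. The forms share nearly all their coding sequence, so their near-equal counts are no measure of exon use, and intervals cover counting error only.

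The genes beside either paralog gave no call. In edgeR 0% to 0.0137% of all tested genes were called, so this says nothing particular to these neighbours. Of the 8 nearest tested genes of EP300 on chromosome 22, 0 passed in any of the 5 comparisons in edgeR, DESeq2 or limma-voom, and RBX1 was the 1 with an unadjusted p under 0.05 in any. RBX1, the RING subunit of cullin ubiquitin ligases and the next gene before EP300, stood at log2 -0.17 ± 0.11 with p300 against without and at -0.38 ± 0.15 with the core against dCas9 (adjusted p = 0.870, edgeR). L3MBTL2, a Polycomb protein gene that follows EP300, stood at -0.20 ± 0.13 with p300 against without, and RANGAP1, the Ran GTPase activator, at -0.26 ± 0.13. XPNPEP3, ST13, SLC25A17, ZC3H7B and TEF lay between -0.04 and 0.08. Without dCas9 replicate 3 RBX1 stood at -0.22 with the core against dCas9, and L3MBTL2 and RANGAP1 at -0.08 and -0.13 with p300 against without. The median over the 8 was -0.03, and it was 0.00 over all tested genes. The 8 nearest tested genes of CREBBP on chromosome 16 had a median of -0.07 with 0 passed by any of the 3 tools. Without dCas9 replicate 3 that median was 0.0049 and 5 of the 8 lay above 0, beside 2 with all libraries. TRAP1 and PAM16, named below, were highest in dCas9 replicate 3, at 222 and 42.5 CPM. With all libraries the chaperone gene TRAP1 stood at -0.10 ± 0.12, the adenylyl cyclase gene ADCY9 at 0.08 ± 0.11, and DNASE1 at -0.32 ± 0.22. PAM16, a subunit of the mitochondrial import motor that shares sequence with a read-through gene and is uncertain for that, stood at -0.30 ± 0.16, and at -0.65 ± 0.23 with D1399Y against dCas9 (adjusted p = 0.618, edgeR).

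The other lysine acetyltransferases stayed without a call. Of 18 listed and tested, 0 passed in any comparison by edgeR, DESeq2 or limma-voom, beside 0% to 0.0137% of all tested genes in edgeR, so the absence of a call says nothing particular to the list. KAT5 and ESCO2 had an unadjusted p under 0.05 in edgeR with D1399Y against dCas9, 11.1% of the list beside 6.12% of all tested genes. With p300 against without, 12 of 18 lay above 0 and the median was 0.14, where all tested genes had a median of 0.00. This shift was not present without dCas9 replicate 3, the library low in long transcripts and the lowest library for 12 of the 18: 9 of 18 then lay above 0 and the median was -0.0024. KAT5 (TIP60), the catalytic subunit of the NuA4 complex, stood at log2 -0.40 ± 0.16 with D1399Y against dCas9 (adjusted p = 0.618, edgeR). ESCO2, which acetylates cohesin, stood at 0.46 ± 0.20 and KAT8 (MOF), which acetylates H4 lysine 16, at -0.37 ± 0.18 in the same comparison, and without dCas9 replicate 3 these stood at -0.25, 0.27 and -0.22. The deacetylases listed (HDAC and SIRT genes), 18 of 18 tested, had 0 passed by the 3 tools. Their median was -0.08 with p300 against without, and -0.017 when dCas9 replicate 3 was left out. An unadjusted p under 0.05 was found in edgeR for 3 of the 18 with D1399Y against dCas9 (16.7%, beside 6.12% of all genes) and for 2 with dCas9-VP64 (11.1%, beside 3.08%). HDAC9 had few counts, 8, 18 and 2 in dCas9 replicates 1, 2 and 3 and from 9 to 34 in the other libraries. It stood at 1.31 ± 0.46 with dCas9-VP64, 0.89 ± 0.47 with the core and 1.22 ± 0.46 with D1399Y, each against the same 3 dCas9 libraries, at 0.96, 0.56 and 0.88 without dCas9 replicate 3, and at 2.03, 1.61 and 1.94 without dCas9 replicate 2. HDAC10, with 329 counts over all libraries, stood at -0.61 ± 0.22 with p300 against without, and HDAC5 at -0.40 ± 0.16 with D1399Y against dCas9. Both were highest in dCas9 replicate 3, at 13.3 and 103 CPM. Without that library 1 of the 18 deacetylases had an unadjusted p under 0.05 in edgeR with D1399Y against dCas9 (5.56%, beside 2.53% of all genes).

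**Figure D5:**
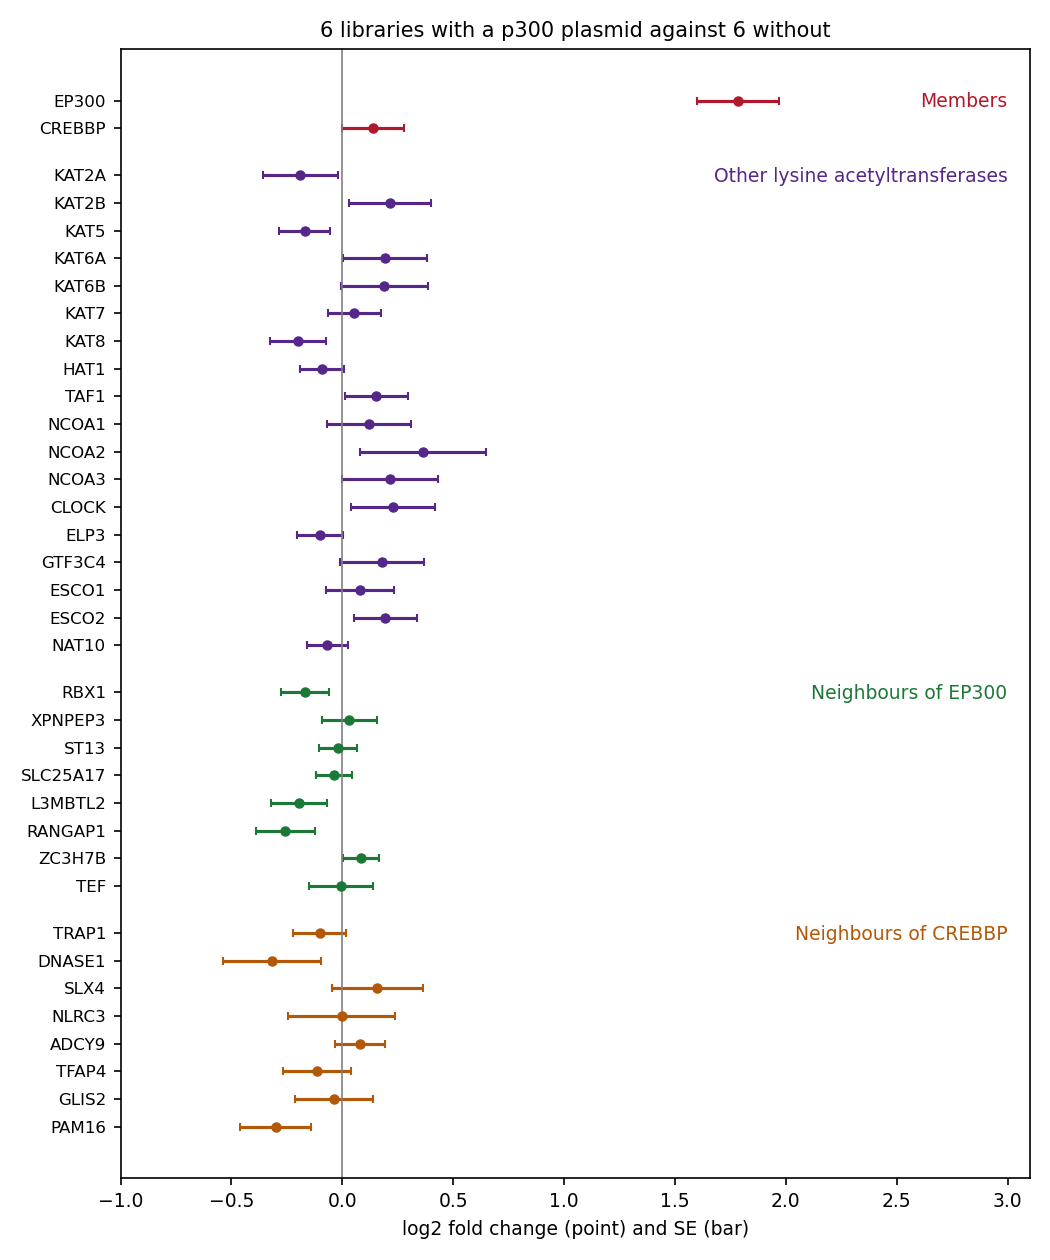
Log2 fold changes (points) with standard errors (bars) for the 6 libraries with p300 against the 6 without, for EP300 and CREBBP, 18 other acetyltransferases and the 8 nearest tested genes of each paralog. EP300 stands at 1.78, and the other 35 genes lie between -0.32 and 0.36.

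The partners of p300 and CBP were likewise without a call. Among 28 transcription factors and adaptors that bind them, 0 passed by the 3 tools, beside 0% to 0.0137% of all tested genes in edgeR. This absence of a call says nothing particular to the list, nor does that of the CREB family below. The median of the 28 was 0.03 with p300 against without. CITED2, which competes with HIF1A for p300 and CBP, stood at log2 -0.51 ± 0.22 with the core, -0.43 ± 0.22 with D1399Y and -0.53 ± 0.22 with dCas9-VP64, each against the same 3 dCas9 libraries. Its level was 142 CPM in dCas9 replicate 1 and between 60.0 and 83.9 CPM in the other 11 libraries, and without that library the 3 differences stood at -0.13, -0.05 and -0.16. IRF3, an interferon regulator that recruits both paralogs, stood at -0.39 ± 0.16 with p300 against without (adjusted p = 0.863, edgeR) and at -0.20 without dCas9 replicate 3, where its level was 121 CPM, and SMAD4 of the TGF-beta pathway at 0.13 ± 0.12. Of 15 genes of the CREB family and its CRTC coactivators 0 passed by the 3 tools, with a median of 0.02. ATF1 stood at -0.33 ± 0.14 with the core against D1399Y (adjusted p = 1.00, edgeR), CREB5 at 0.49 ± 0.20 with D1399Y against dCas9, and CREB3L1 at -0.60 ± 0.26 with dCas9-VP64 against dCas9. CITED2 and IRF3 were the 2 partner genes, and these 3 the CREB family genes, with an unadjusted p under 0.05 in edgeR in at least 1 comparison. By comparison such genes made up 0% to 7.14% of the partners and 0% to 6.67% of the CREB family list. Over all tested genes the share was 1.82% to 6.12%. CREB5 was lowest in dCas9 replicate 3, at 95.2 CPM beside a median of 150 CPM.

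Genes whose levels ran most like EP300 over the 12 libraries were mostly of low level. By Pearson's r of log2 CPM the nearest were ZNF284 (r = 0.89), PKDREJ (r = 0.84), MEGF11 (r = 0.83) and DPY19L2 (r = 0.83). ZNF284 stood at 2.30 ± 0.645 CPM without p300 and 3.74 ± 0.686 CPM with it (SD, n = 6), and MEGF11 at 14.8 ± 1.09 and 19.6 ± 2.09 CPM. EP300 was the only gene called in edgeR with p300 against without. The genes nearest to it were picked for a high r with EP300, which itself splits by p300 plasmid. Their difference between libraries with and without p300 thus follows from that choice and is no separate result. Those most like CREBBP were DOCK3 (r = 0.95), DIP2A (r = 0.94), HERC2 (r = 0.94) and EIF4G3 (r = 0.93). HERC2 stood at 144 ± 28.1 CPM without p300 and 163 ± 13.0 CPM with it. EP300 and CREBBP had r = 0.57 with each other. All 8 genes were lowest in dCas9 replicate 3, the library low in long transcripts. It enters every one of these values, so the values describe these libraries only.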

How the data were processed

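Messenger RNA of HEK293T cells was analysed in 12 libraries, 3 in each of 4 groups. Whole-number read counts over 40709 RefSeq transcripts were deposited for each library. Per the submitters' processing notes hg19 was the genome build, and DESeq2 1.6.2, R 3.1.2, Bowtie2, SAMtools and CASAVA were used. No source used here states which step each served, or how isoforms, strand and duplicates were handled.

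Accessions were named through a RefSeq table (39320) and GENCODE release 29 (521), both of GRCh38, so no genome coordinates are given; 868 kept their accession and held 1.07% of reads. Counts were summed per gene. edgeR 4.0.16 in R 4.3.3 (TMM, filterByExpr with a minimum count of 10 and total of 15, quasi-likelihood test, 1 fit of 4 group means over 12 libraries, two-sided) was adjusted by Benjamini-Hochberg over 14621 genes, with a threshold of 0.05. Standard errors were taken from the log2 fold change and F. The script was tested on simulated data. DESeq2 1.42.0, limma-voom (limma 3.58.1) and other alternatives are in the closing section. Coding sequences were aligned with Biopython 1.88, and correlations used log2 CPM with a prior count of 2.

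Named genes were both paralogs, IL1RN, the 4 nearest tested protein-coding genes on either side of each paralog, the 4 genes of highest r with each, and from each gene list the members past the threshold and 3 others of smallest p. VIM, PAX2, CD3E, HBB, COL1A1, COL3A1, ACTB and GAPDH were chosen as checks after their values were seen. EP300-AS1, which the plan for named genes lists, is not analysed here. The members and lists were chosen with earlier results of these data known. The labels call the transfections triplicates and do not say whether cultures were separate, so the p-values cover only the spread among these libraries, which may be technical.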

Additional observations from a re-analysis of the deposited data

How the results depend on the processing

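Of 511 recomputed values, 431 were kept, 27 lost the call, 4 changed sign and 49 moved; the cause was not tested. Kept means the same direction and side of the threshold for a tested value, within 1.5 times for a count of genes (2 against 3 included), and within 1 SD of the libraries for an excess or a list's median. In edgeR, EP300 in the core against dCas9 missed the threshold at log2 1.89 with the replicate block (adjusted p = 0.101), 1.75 in the CV41 libraries and 1.86 with the compared groups alone (adjusted p = 0.954), and in D1399Y against dCas9 at 2.02 with the block (adjusted p = 0.141), 1.96 in CV41 and 1.99 with the groups alone (adjusted p = 0.823). EP300 with p300 against without missed it at 1.71 in CV41 and kept it with the block (1.81, adjusted p = 0.0123). The main fit did not treat the replicate numbers as pairing. Yet 14 of 18 same-numbered pairs had a correlation of deviations over 0.1 (-0.18 to 0.50), and 12 of 12 libraries correlated best with their own number. Libraries of the same number thus shared part of their deviations, which the main fit leaves out.

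In the order VP64, core and D1399Y against dCas9, core against D1399Y, and with p300 against without, the genes called numbered 0, 2, 1, 1 and 1. DESeq2 gave 1, 4, 1, 4 and 2. The replicate block gave 1, 1 and 0 in the first 3 comparisons. CV41 gave 1 for the core, 0 for D1399Y and 0 for p300 against without. The compared groups alone gave 1 for the core, 0 for D1399Y and 4 for core against D1399Y, single transcripts 6 for the core and 4 for core against D1399Y, and no filter 1 for VP64. The D1399Y excess was 74.9% over dCas9 and 69.4% over dCas9-VP64 libraries.

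Leaving out each library in turn gave 0 to 1 genes for VP64, 1 to 2 for the core, 0 to 1 for D1399Y and 1 to 5 for core against D1399Y, the 5 without dCas9 replicate 3. EP300 ran from 1.54 to 2.14 for the core, 1.67 to 2.28 for D1399Y and -0.040 to 0.57 for VP64, the negative value without dCas9 replicate 3. CREBBP in core against D1399Y ran from -0.061 to 0.20, below 0 without core replicate 3 or D1399Y replicate 2 (-0.0089). The log2 ratio of EP300 to CREBBP for VP64 ran from -0.056 to 0.30, below 0 without dCas9 replicate 3, and the D1399Y excess from 69.0% to 73.6%. Library sizes taken before the filter and a robust fit, both chosen after seeing the data, changed no call of EP300 or CREBBP. Gene lists without each dCas9 library, also chosen after seeing the data, held 0 called genes. The values with least depth are those of the smallest library, dCas9 replicate 3, which rest on 266 CREBBP and 140 EP300 counts.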
